A study of Mus musculus with 4 samples.

Results

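The 86 nuclear genes of mitochondrial oxidative phosphorylation listed in these libraries were examined in mouse late two-cell embryos cultured with or without an inhibitor of the transcription factor MYC. They were chosen by symbol. The rule took every Nduf gene with a number after the letter A, B, C, S or V, the 4 Sdh genes and every Uqcr gene. It also took the Cox4 to Cox8 and Atp5 genes, Cyc1 and Cycs. These are 86 of the 24411 genes listed, and 85 of them were among the 13549 genes that passed the filter on low counts and were tested. By the complex in which the protein resides, 35 belong to complex I, 4 to complex II, 9 to complex III, 20 to complex IV and 16 to complex V, and Cycs encodes cytochrome c. Atp5sl matches the rule by its letters but is named for its likeness to a subunit and acts in complex I assembly, so it was left out of the values by complex. None of the 13 mitochondrially encoded subunits is listed, so they were not analysed here.

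Polyadenylated RNA was sequenced from 4 libraries of ICR mouse embryos, each a pool of 10 embryos made by in vitro fertilization, cultured in KSOM medium and collected 36 h post-insemination (hpi). The embryos of 2 libraries received 6 µM 10074-G5, a small molecule that binds MYC and stops it from joining MAX, while the other 2 libraries received DMSO, its vehicle. The sample labels put the start of both cultures at 3 hpi, whereas the series description gives 6 hpi for the inhibitor. The comparison asks how the level of each subunit transcript differed between MYC-inhibited and control embryos. The labels do not say whether the 2 libraries of a group came from separate fertilizations, so p-values measure only the spread between these libraries.

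Oxidative phosphorylation makes ATP from the electrons of NADH and succinate. Complexes I and II pass the electrons to ubiquinone, complex III passes them through cytochrome c to complex IV, where oxygen is reduced, and complex V, the ATP synthase, uses the proton gradient that complexes I, III and IV build. Each complex except complex II also holds subunits encoded by mitochondrial DNA. The mitochondria of the early embryo are inherited from the oocyte.

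The libraries held between 18206584 and 20718690 expected counts. DMSO replicate 1 stood apart from the other 3 libraries, with a TMM scaling factor of 0.873 against 1.04 to 1.06, so values without it are given beside many of the results. Most markers of the oocyte were higher in the treated libraries and lowest in DMSO replicate 1: the summed level of 15 such genes was 1395 CPM (counts scaled to library size) in DMSO replicate 1, 3204 in DMSO replicate 2, and 5410 and 4753 in the treated libraries, and 13 of the 15 had a log2 fold change (log2FC) above 0. The others, Zp3 and Khdc3, had log2FC of -1.37 and -0.14 and were highest in DMSO replicate 1. All 14 two-cell markers were detected, with sums from 7639 to 8135 CPM, but the sum hides opposite differences: 11 had a log2FC of 0 or above, while Dppa2, Dppa4 and Obox6 had -2.63, -1.79 and -1.10 and were highest in DMSO replicate 1. The centred median of the 14 was lowest in that library, at -0.98 on the log2 scale. Cumulus and granulosa markers summed to between 1.98 and 11.6 CPM over 12 genes, with Amh, Foxl2, Inha, Inhba and Ptx3 at 0 in every library. Sperm markers summed to between 46.5 and 196 CPM, nearly all of it Odf2, with Prm1, Prm3, Tnp2 and Smcp at 0 in every library. The part of these marker differences in the results was not tested. In pooled embryos, fewer embryos or cells with a transcript and less of it per cell cannot be told apart.

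Most subunit genes were among the more abundant transcripts in every library. In FPKM (fragments scaled to transcript length and library size, a level per length), their median level was 62.8, against 5.10 for all genes tested, and 21 of them were among the 500 highest genes. Their transcripts were short, with a median effective length of 380 bases in DMSO replicate 1, against 2385 for all genes tested. Some members were not abundant, such as Ndufv1 with a mean of 2.53 FPKM. Cox8a, a small subunit of complex IV, was the highest with a mean of 1908 FPKM, followed by Atp5g1 (1356), Uqcrq (1325), Cox6b2 (974) and Cox5a (819). All members together held 2.39% and 2.35% of the summed FPKM of the 2 DMSO libraries and 2.19% and 2.15% in the 2 treated libraries, so the groups did not overlap in this share.

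Most subunit genes had a lower level in the treated libraries, by a small amount, and no gene passed the test. The log2FC of treated against DMSO was below 0 for 66 of 85 members (77.6%), against 48.5% of all genes tested. The median log2FC was -0.48 over the members and 0.04 over all genes. With scaling by library totals the median over all genes became 0.17 and that over the members -0.32, so the distance between them remained close to that of the scaling used here. For 47 members (55.3%) both treated libraries were lower in CPM than both DMSO libraries, against a background of 28.3% of all genes, and for 9 members (10.6%) both were higher, against 28.9%. The higher members include Ndufa4l2, which passed the filter on low counts only through the treated libraries. The lower members include Cox7b2, which passed it only through the DMSO libraries.

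No member had an adjusted p under 0.05 in the quasi-likelihood test of edgeR, with Benjamini-Hochberg adjustment over all genes tested (background 0%, smallest adjusted p 0.333). At an unadjusted p under 0.05 in edgeR, 8 members (9.41%) were lower, against 10.1% of all genes, and 0 were higher, against 4.72%. The count of lower members is therefore near the background. With DESeq2 on the same genes, at an adjusted p under 0.05 and a log2FC beyond 1 in size, 1 of the 72 members with an adjusted p was called lower, Ndufb7, against 5.86% of genes, and 0 were called higher, against 1.18%. For any gene taken alone, an exact two-sided permutation test of 2 against 2 libraries cannot go below p = 0.333.

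**Figure D1:**
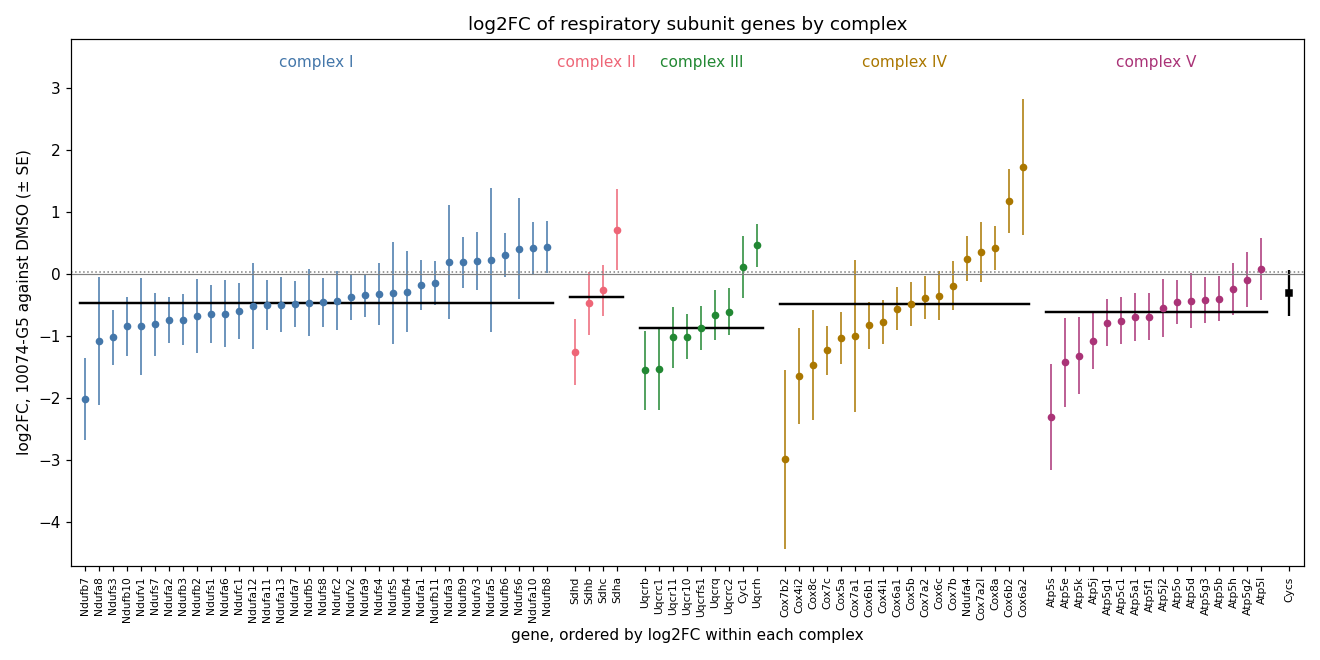
Log2FC of 10074-G5 against DMSO (y axis, edgeR, points with SE bars) for tested subunit genes (x axis), ordered within complexes I to V, with the median of each complex as a black bar and the median of all genes as a dotted line. The medians of complexes I to V lie at -0.45, -0.36, -0.87, -0.48 and -0.61, all below the dotted line at 0.04. Ndufa4l2, whose DMSO libraries are both at 0, Atp5sl and a gene not reported here are not drawn.

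Much of the distance came from DMSO replicate 1. After centring each gene on its mean over the 4 libraries, on the log2(CPM + 1) scale, the median over the members was 0.46 and -0.01 in DMSO replicates 1 and 2 and -0.19 and -0.23 in treated replicates 1 and 2. DMSO replicate 2 was thus closer to the treated libraries than to the other DMSO library, but still above both. DMSO replicate 1 exceeded DMSO replicate 2 in 65 of 85 members (76.5%), against 47.9% of all genes. Among the 47 members that were lower without overlap, DMSO replicate 1 was above DMSO replicate 2 in 42. Without DMSO replicate 1, 55 members had a log2FC below 0, their median was -0.24 against 0.06 for all genes, 49 were lower without overlap against 36.4% of genes, and 24 were higher without overlap against 37.0%. Without it 5 members were lower and 2 higher at an unadjusted p under 0.05 in edgeR, against 7.36% and 6.44% of genes. Without DMSO replicate 2, the median was -0.73 against 0.22 for all genes.

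**Figure D2:**
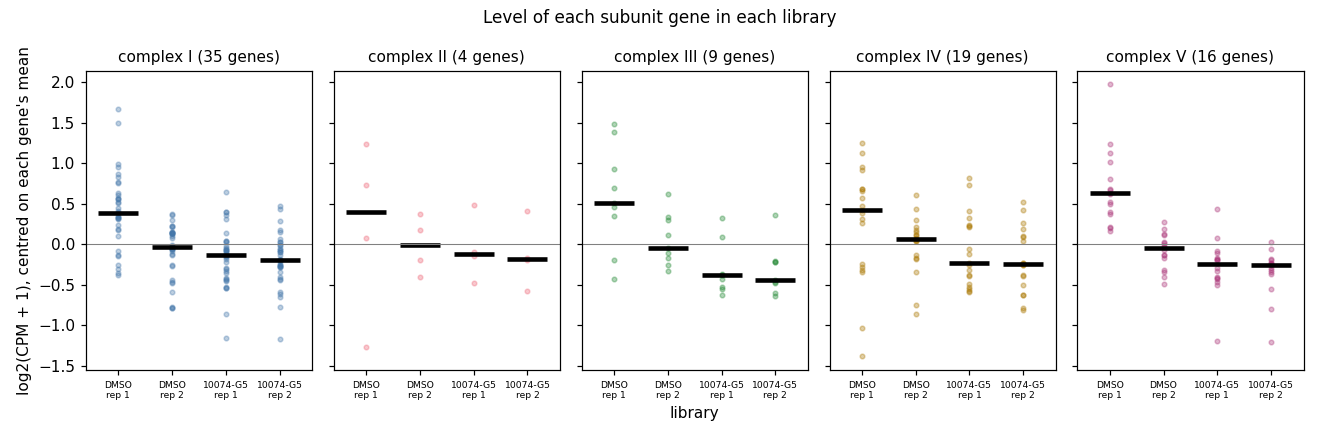
Level of each tested subunit gene (points) in each library (x axis) as log2(CPM + 1) centred on the gene's mean (y axis), 1 panel per complex, with the median of each complex as a black bar. In each panel the bar is highest in DMSO replicate 1 (0.39 to 0.63), lies between -0.05 and 0.07 in DMSO replicate 2, and is lowest in the 2 treated libraries (-0.44 to -0.11).

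The complexes shared the direction of their median and differed in its size. Complex III had the lowest median log2FC (-0.87, 7 of 9 genes lower), followed by complex V (-0.61, 15 of 16), complex IV (-0.48, 13 of 19), complex I (-0.45, 27 of 35) and complex II (-0.36, 3 of 4). Without DMSO replicate 1 the medians were -0.41, -0.35, -0.29, -0.13 and -0.10 in the same order. Per length, complex III held 0.367% and 0.332% of the summed FPKM in the DMSO libraries and 0.261% and 0.291% in the treated ones. Complex V held 0.687% and 0.556% in the DMSO libraries and 0.463% and 0.482% in the treated ones, again without overlap. Complex I was at 0.363% and 0.362% against 0.337% and 0.326%, and complex IV at 0.939% and 1.07% against 1.10% and 1.02%, where the groups overlapped. The difference between complexes was not tested.

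The median log2FC was alike at high and at low abundance. The 36 members with a mean of at least 1000 counts had a median of -0.48, and 24 of them (66.7%) were lower and 3 (8.33%) higher without overlap. The 49 members with fewer counts had a median of -0.49, and 23 of them (46.9%) were lower and 6 (12.2%) higher without overlap, against 28.3% and 28.9% of all genes.

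Ndufb7, an accessory subunit of the membrane arm of complex I, had the largest difference among the members of this complex. Its level was 146 and 49.6 FPKM in DMSO replicates 1 and 2, and 26.3 and 29.1 FPKM in the treated libraries. The treated libraries were close to each other and below both DMSO libraries, which differed from each other more than DMSO replicate 2 differed from the treated ones. Its log2FC was -2.01 ± 0.66 (SE, n = 2 per group, edgeR adjusted p = 0.333), and -0.82 without DMSO replicate 1. DESeq2 gave -2.04 with an adjusted p of 0.0419. The log2FC of Ndufb7 ran from -2.65 to -0.82 over all alternatives, which include DESeq2, limma and the fits with a library left out. The gene lies at chr8:83566758-83571623 of GRCm38.p6 (the primary sequence of mm10). Its promoter, 250 bases before to 50 bases after the start site in RefSeq (chr8:83566508-83566807, plus strand), is shown because Ndufb7 is the only member that DESeq2 called, with the letters of the GABPA motif described below in capitals.
Ndufb7: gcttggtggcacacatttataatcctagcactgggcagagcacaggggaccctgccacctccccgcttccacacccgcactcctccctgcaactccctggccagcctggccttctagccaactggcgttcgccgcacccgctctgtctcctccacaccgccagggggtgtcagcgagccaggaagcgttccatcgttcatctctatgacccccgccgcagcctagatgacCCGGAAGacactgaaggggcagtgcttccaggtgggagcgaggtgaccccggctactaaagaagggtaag

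The core subunits of complex I include those that carry its flavin and iron-sulphur clusters. Those described here, Ndufv1, Ndufs1, Ndufv2, Ndufs3, Ndufs7 and Ndufs8, were each lower in both treated libraries than in both DMSO libraries, and none passed the test. Ndufv1, Ndufs1 and Ndufv2, which form the NADH dehydrogenase module, had log2FC of -0.84, -0.64 and -0.37. Ndufs3, Ndufs7 and Ndufs8, in the module that passes electrons towards ubiquinone, had log2FC of -1.02, -0.81 and -0.45.

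Ndufs3 had the smallest p of these subunits. It was at 66.4 and 47.1 FPKM in the DMSO libraries and 33.6 and 28.9 in the treated ones, a log2FC of -1.02 ± 0.45 (edgeR adjusted p = 0.343), or -0.59 without DMSO replicate 1. For Ndufs1 the levels were 7.29 and 7.55 FPKM against 4.15 and 6.16, and for Ndufv1 3.34 and 2.90 against 2.50 and 1.37, from as few as 36 counts in a library. By mean FPKM the highest gene of complex I was an accessory one, Ndufb6, at 318 and 464 FPKM in DMSO and 569 and 470 in treated embryos (log2FC 0.31 ± 0.36).

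The 28 accessory subunits of complex I that matched the rule, which surround the core, were less uniform. Ndufab1, also an accessory subunit, did not match it and was counted with the assembly factors (log2FC 0.62, higher without overlap). The median log2FC of the 28 was -0.38, with 20 lower and 8 higher, and 9 (32.1%) were lower and 3 (10.7%) higher without overlap. The lower share is near the 28.3% of all genes. The 3 higher ones were Ndufa10, Ndufb8 and Ndufb9, with log2FC of 0.43, 0.45 and 0.20. Ndufb11 and Ndufa1 showed next to no difference in FPKM, from 149.6 to 150.5 and from 114 to 121 over the 4 libraries. In CPM, Ndufb11 was at 98.7 and 82.9 in DMSO and 83.8 and 81.1 in treated embryos. Ndufa1 was lower without overlap in CPM, at 29.5 and 25.7 against 24.7 and 24.3 (log2FC -0.17).

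Complex II, succinate dehydrogenase, joins the citric acid cycle to the chain. Its flavoprotein Sdha and its membrane anchor Sdhd differed in opposite directions, and both differences rested on DMSO replicate 1. Sdhd was at 74.1 FPKM in DMSO replicate 1, 31.9 in DMSO replicate 2, and 25.97 and 24.8 in the treated libraries. Its log2FC was -1.25 ± 0.54 (edgeR adjusted p = 0.337), or -0.32 without DMSO replicate 1. Sdha was at 1.58 FPKM in DMSO replicate 1, from 78 counts, and at 6.75, 7.30 and 7.05 in the other libraries. Its log2FC of 0.72 ± 0.65 was 0.09 without DMSO replicate 1. The iron-sulphur subunit Sdhb was at 43.9 and 23.0 FPKM in DMSO and 27.6 and 27.2 in treated embryos, so that the groups overlapped, and its log2FC of -0.47 was 0.26 without DMSO replicate 1. Sdhc, the other anchor, ran from 26.2 to 33.4 FPKM over the 4 libraries. In CPM it was lower without overlap, at 27.0 and 29.0 in DMSO and 24.0 and 22.8 in treated embryos (log2FC -0.26).

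In complex III, Uqcrfs1 and Uqcr10 had the smallest p, and their difference did not rest on DMSO replicate 1. Uqcrfs1, the Rieske iron-sulphur protein, was at 96.4 and 102 FPKM in the DMSO libraries and 61.3 and 58.8 in the treated libraries. The spread within each group was small beside the gap, and the log2FC of -0.87 ± 0.35 (edgeR adjusted p = 0.333) was -0.77 without DMSO replicate 1 and ran from -0.95 to -0.72 over the alternatives. Uqcr10, a small subunit next to it, was at 399 and 576 FPKM in DMSO and 246 and 275 in treated embryos. Here DMSO replicate 2 was the highest library, and the log2FC of -1.01 ± 0.37 (edgeR adjusted p = 0.333) became -1.12 without DMSO replicate 1. Uqcrfs1 lies at chr13:30540312-30545316 and Uqcr10 at chr11:4701968-4704344.

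The other members of complex III were less alike. Uqcrb, which binds near the ubiquinone site, was at 121 FPKM in DMSO replicate 1 and at 45.9, 31.6 and 33.1 in the other libraries (log2FC -1.55 ± 0.64, edgeR adjusted p = 0.334). The core proteins Uqcrc1 and Uqcrc2 had log2FC of -1.53 and -0.60, both lower without overlap. Uqcrc1 was at 26.4 FPKM in DMSO replicate 1 and at 8.38, 7.16 and 6.75 in the other libraries, so most of its difference rested on that library. Uqcrc2 was at 40.1 and 37.6 FPKM in DMSO and 26.6 and 30.1 in treated embryos. Cyc1, the cytochrome c1 that hands electrons to cytochrome c, was at 11.9 and 24.1 FPKM in DMSO and 24.6 and 17.1 in treated embryos, with no direction that held: its log2FC of 0.11 was -0.21 without DMSO replicate 1. Uqcrh, the hinge protein, was higher in both treated libraries, at 259 and 295 FPKM in DMSO and 370 and 465 in treated embryos (log2FC 0.47 ± 0.35). Uqcrq was the highest of the complex, at 1850 and 1254 against 1019 and 1176 FPKM (log2FC -0.65, or -0.18 without DMSO replicate 1). Its locus overlaps that of Gdf9, an oocyte gene with a log2FC of 1.32, and strand was not used to tell them apart as far as the sources used here say.

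**Figure D3:**
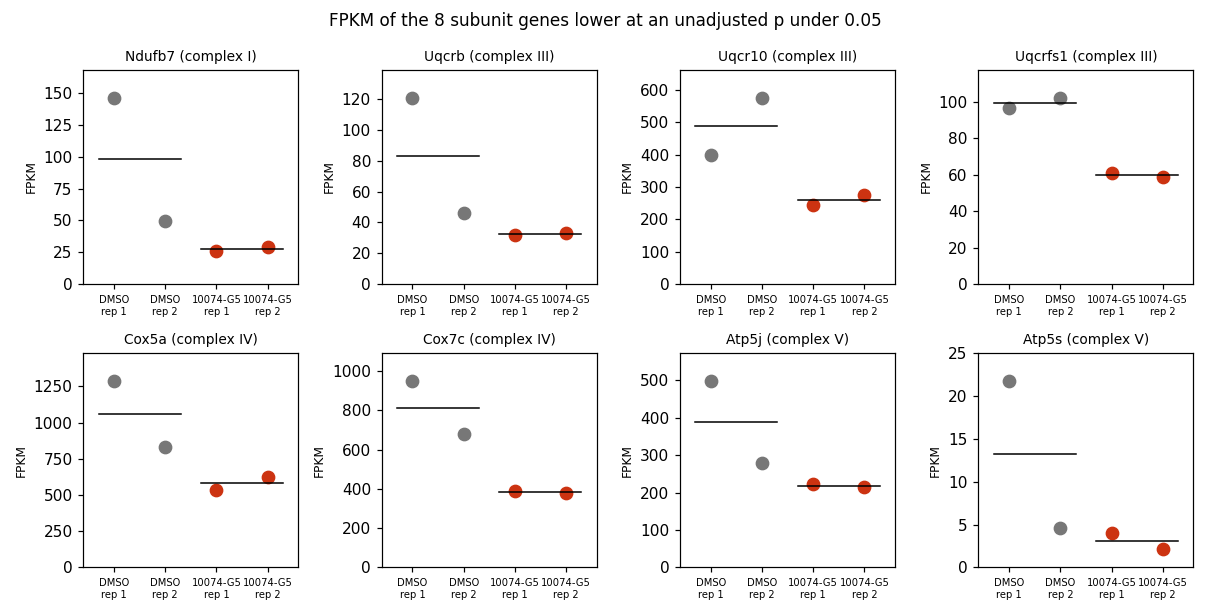
FPKM (y axes, from 0) in each library (x axis) of the 8 subunit genes that were lower at an unadjusted p under 0.05 in edgeR, with DMSO in grey, 10074-G5 in red and the mean of each group as a line. In all 8 genes both DMSO libraries stand above both treated ones. In Ndufb7, Uqcrb and Atp5s the DMSO mean rests on replicate 1. In Uqcrfs1 (96.4 and 102 against 61.3 and 58.8) and Uqcr10, replicate 2 is the higher DMSO library.

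Cycs, the soluble carrier between complexes III and IV, showed no difference beyond the spread, at 160 and 133 FPKM in DMSO and 126 and 141 in treated embryos (log2FC -0.29 ± 0.37), and its log2FC was 0.003 without DMSO replicate 1.

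In complex IV, cytochrome c oxidase, 13 of the 19 tested genes had a log2FC below 0. Of the 11 ubiquitous subunits, 9 had a log2FC below 0, and 7 (63.6%) were lower and 1 higher without overlap, against 28.3% and 28.9% of all genes. The 7 tested tissue isoforms were mixed, with 3 lower and 3 higher without overlap and a median log2FC of -0.995. The higher ones include Ndufa4l2, with 0 counts in both DMSO libraries. It passed the filter only through the treated libraries, so its direction was fixed by the filter. Cox7b2, among the lower ones, passed only through the DMSO libraries, so its direction was fixed in the same way. Cox7c was at 951 and 678 FPKM in the DMSO libraries and 389 and 381 in the treated ones. Both treated libraries were well below both DMSO libraries, with a log2FC of -1.23 ± 0.39 (edgeR adjusted p = 0.333), the smallest p of all members, and -0.80 without DMSO replicate 1. Cox5a, a subunit on the matrix side, was at 1288 and 831 FPKM against 534 and 625, with a log2FC of -1.03 ± 0.42 (edgeR adjusted p = 0.333) that became -0.51 without DMSO replicate 1. Cox4i1, at 637 and 566 against 394 and 398 FPKM, and Cox6a1, at 556 and 535 against 388 and 428 FPKM, were lower without overlap. Their DMSO libraries lay further apart in CPM than in FPKM. In CPM, Cox4i1 was at 314 and 237 against 161 and 162, and Cox6a1 at 164 and 133 against 97.9 and 105. The most abundant subunit went the other way: Cox8a was at 1382 and 1723 FPKM in DMSO and 2406 and 2120 in treated embryos (log2FC 0.43 ± 0.36), and 0.41 without DMSO replicate 1. Cox7c lies at chr13:86044798-86046795, Cox5a at chr9:57517328-57532427 and Cox8a at chr19:7215158-7217616.

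The Cox6b isoforms, which sit between the monomers of the oxidase dimer, differed in opposite directions. Cox6b1, the ubiquitous isoform, was at 611 and 512 FPKM in DMSO and 301 and 399 in treated embryos. Cox6b2, known as the testis isoform, was at 283 FPKM in DMSO replicate 1, 877 in DMSO replicate 2, and 1474 and 1263 in the treated libraries. Cox6b2 thus made up 31.6% and 63.1% of the summed FPKM of the pair in the DMSO libraries and 83.1% and 76.0% in the treated libraries. The log2FC was -0.82 ± 0.38 for Cox6b1 (edgeR adjusted p = 0.350) and 1.18 ± 0.51 for Cox6b2 (edgeR adjusted p = 0.337), and neither passed the test. Without DMSO replicate 1 the values were -0.53 and 0.65, in the same directions. In Cox6b2, as in most of the oocyte markers, DMSO replicate 1 was the lowest library.

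Both genes lie on chromosome 7, Cox6b1 at chr7:30616971-30626114 and Cox6b2 at chr7:4751792-4753094. Their RefSeq promoters, 250 bases before to 50 bases after each start site on the minus strand (chr7:30626065-30626364 and chr7:4753045-4753344), are set side by side because the log2FC of the pair had opposite signs at levels of the same order. Capitals mark a GABPA motif in that of Cox6b1, and no motif searched was found in that of Cox6b2.
Cox6b1: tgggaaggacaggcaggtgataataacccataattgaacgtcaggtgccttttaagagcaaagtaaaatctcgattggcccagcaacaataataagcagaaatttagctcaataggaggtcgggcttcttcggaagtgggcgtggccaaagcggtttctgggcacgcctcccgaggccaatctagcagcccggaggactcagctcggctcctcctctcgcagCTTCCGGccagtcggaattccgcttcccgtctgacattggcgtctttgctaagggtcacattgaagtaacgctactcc
Cox6b2: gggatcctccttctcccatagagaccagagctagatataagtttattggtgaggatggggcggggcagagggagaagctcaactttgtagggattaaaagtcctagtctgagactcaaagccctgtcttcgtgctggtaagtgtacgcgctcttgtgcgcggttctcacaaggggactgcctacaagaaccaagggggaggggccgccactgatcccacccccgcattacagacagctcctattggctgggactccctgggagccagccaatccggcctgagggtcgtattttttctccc

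The other tissue isoforms were far below their ubiquitous partners. Cox4i2, an isoform of lung and of low oxygen, was at 17.6 and 8.96 FPKM in DMSO and 5.75 and 3.83 in treated embryos. Cox6a2, the isoform of heart and skeletal muscle, was at 0.82 and 4.19 FPKM against 9.76 and 7.55, from 6 to 78 counts, and its locus overlaps that of Itgad. Cox8c was at 17.9 and 15.1 against 6.48 and 6.65 FPKM. Cox7b2 had 36 and 38 counts in DMSO and 8 and 3 in treated embryos, and passed the filter only through the DMSO libraries. Of these, Cox4i2, Cox8c and Cox7b2 were lower and Cox6a2 higher without overlap, and none passed the test. Cox7a1, another muscle isoform, was at 47.6 and 5.62 against 22.2 and 8.38 FPKM, so its groups overlapped, and its log2FC turned from -0.995 to 1.47 without DMSO replicate 1. Its partner Cox7a2 was at 585 and 630 against 530 and 495 FPKM, and Cox7a2l, which joins complexes III and IV into supercomplexes, at 41.1 and 22.7 against 46.4 and 46.0 FPKM.

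Ndufa4, once counted in complex I, is a subunit of complex IV and was at 301 and 467 FPKM in DMSO and 510 and 469 in treated embryos. Its low-oxygen isoform Ndufa4l2 had 0 counts in both DMSO libraries and 15 and 11 in the treated ones, at least 7.25-fold higher when the DMSO group is set to 3 counts in all. The locus of Ndufa4l2 overlaps that of Shmt2, so the source of these few counts is uncertain. Cox8b, the muscle isoform of Cox8, was the only member not tested, with 0 counts in all 4 libraries.

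**Figure D4:**
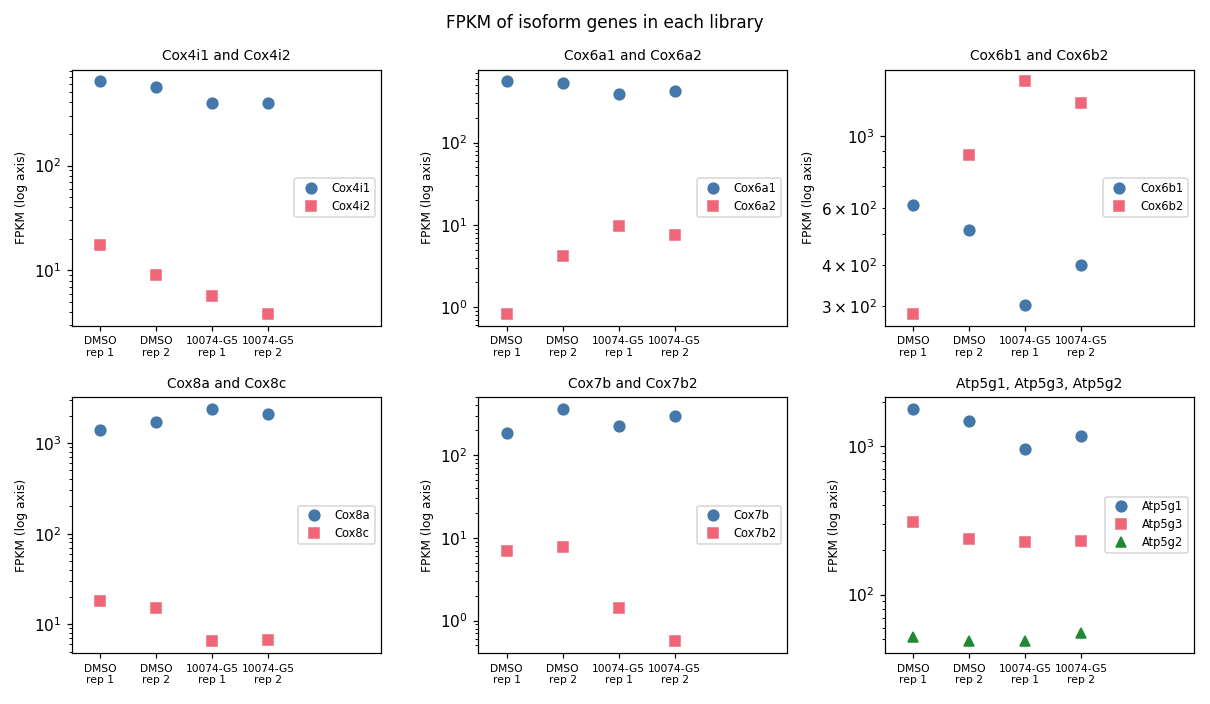
FPKM (log y axes) in each library (x axis) of 5 isoform pairs of complex IV and of the 3 genes for the c subunit of complex V. Cox6b2 passes from below Cox6b1 in DMSO replicate 1 (283 and 611 FPKM) to above it in the other 3 libraries, while in the other sets the order of the genes is the same in every library.

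In complex V, 15 of 16 genes (93.8%) had a log2FC below 0, against 48.5% of all genes, and 12 (75.0%) were lower without overlap, against 28.3%. All 5 subunits of its F1 catalytic head were lower without overlap, with a median log2FC of -0.69 and none past the test. Atp5a1 and Atp5b, whose proteins alternate in the catalytic ring, were at 76.0 and 55.5 against 45.3 and 46.3 FPKM, and at 302 and 275 against 241 and 248 FPKM. Atp5c1, the rotating shaft, was at 363 and 274 against 201 and 225 FPKM, with a log2FC of -0.75 ± 0.38 that was -0.36 without DMSO replicate 1. The log2FC of Atp5a1 and Atp5b were -0.69 and -0.39, and -0.28 and -0.17 without that library.

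The peripheral stalk keeps the head from turning, and its 4 genes had log2FC from -1.07 to -0.24. Atp5j, coupling factor 6 of the stalk, was at 498 and 278 FPKM in DMSO and 223 and 215 in treated embryos (log2FC -1.07 ± 0.45, edgeR adjusted p = 0.334), or -0.40 without DMSO replicate 1. Its locus overlaps that of Gabpa, whose log2FC was -0.76. Atp5s, coupling factor B, had the largest difference of the complex, at 21.8 FPKM in DMSO replicate 1 and at 4.60, 4.07 and 2.14 in the other libraries. Its log2FC of -2.30 ± 0.86 (edgeR adjusted p = 0.333) was -0.57 without DMSO replicate 1, so it rested on that library. Only Atp5l of the membrane subunits had a log2FC above 0, at 0.08.

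The membrane ring of complex V is built of a single protein, the c subunit, from 3 genes. Atp5g1 was the main source, at 1800 and 1491 FPKM in DMSO and 963 and 1170 in treated embryos. Atp5g3 was at 311 and 237 against 225 and 231 FPKM, and Atp5g2 at 51.6 and 48.4 against 48.4 and 55.2 FPKM. Atp5g1 and Atp5g3 were lower without overlap, with log2FC of -0.78 ± 0.39 and -0.41 ± 0.38, or -0.48 and -0.05 without DMSO replicate 1. Atp5g2 differed by less than the spread, at -0.09 ± 0.44, and its sign changed with the scaling. The log2FC of none of the 3 passed the test.

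The 3 genes encode different leader peptides but the same last 78 residues, so the ring protein is the same whichever gene it comes from. The 234 coding bases of that shared end are printed, from GENCODE transcripts on GRCm38, because they show how far the 3 transcripts can be told apart by their reads. Capitals mark bases that differ from Atp5g1: 36 in Atp5g2 (84.6% identity) and 50 in Atp5g3 (78.6%). Atp5g1 lies at chr11:96072793-96075694, Atp5g2 at chr15:102662868-102671047 and Atp5g3 at chr2:73908447-73912464.
Atp5g1: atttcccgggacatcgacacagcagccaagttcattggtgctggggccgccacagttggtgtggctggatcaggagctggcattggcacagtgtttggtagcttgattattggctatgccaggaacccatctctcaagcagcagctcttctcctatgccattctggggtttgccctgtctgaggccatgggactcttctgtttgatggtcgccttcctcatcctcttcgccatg
Atp5g2: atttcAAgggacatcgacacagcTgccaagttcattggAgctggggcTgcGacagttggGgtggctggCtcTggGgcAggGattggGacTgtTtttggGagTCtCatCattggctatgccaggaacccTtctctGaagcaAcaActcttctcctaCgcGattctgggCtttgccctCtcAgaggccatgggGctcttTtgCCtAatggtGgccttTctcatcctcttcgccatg
Atp5g3: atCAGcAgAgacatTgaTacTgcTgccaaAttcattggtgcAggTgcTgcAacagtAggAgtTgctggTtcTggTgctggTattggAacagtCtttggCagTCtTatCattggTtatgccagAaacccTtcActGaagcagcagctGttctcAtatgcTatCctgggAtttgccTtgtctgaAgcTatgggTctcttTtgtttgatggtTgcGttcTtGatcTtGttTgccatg

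The 4 motifs below, known for this gene class, were counted in promoters of RefSeq on GRCm38.p6, each 300 bases long and read on both strands. They were the E-box CACGTG, which MYC with MAX can bind, GCATGCGC of NRF1, CCGGAAG of GABPA and other ETS factors, and AAGATGGC of YY1, and no motif's letters hold those of another. A promoter was found for 67 of the 86 members, 72 promoters in all. Promoters of the same gene were counted separately, and those of Ndufa7 overlap and share the same E-box. The E-box was in 8.33% of member promoters, against 7.15% of all 32851 promoters and 9.71% of those of genes tested. The NRF1 motif was in 15.3%, against 2.71% and 5.06%, the GABPA motif in 22.2%, against 8.86% and 16.1%, and the YY1 motif in 12.5%, against 2.75% and 4.20%.

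The E-box genes were Atp5g1, Atp5g3, Atp5l, Ndufa7 and Ndufv1, with log2FC of -0.78, -0.41, 0.08, -0.48 and -0.84. Among the 56 promoters of members with a log2FC below 0, the E-box was in 8.93% and the NRF1 motif in 17.9%, and among the 15 of members above 0, each was in 6.67%. The GABPA motif was in 21.4% and 26.7%, and the YY1 motif in 10.7% and 20.0%. With 15 promoters on the higher side, each promoter is 6.67% of that group, and no difference between the groups was tested. The promoter of Cox6a1 (chr5:115348909-115349208, minus strand) is shown because it holds 2 overlapping NRF1 matches and a GABPA match, all in capitals.
Cox6a1: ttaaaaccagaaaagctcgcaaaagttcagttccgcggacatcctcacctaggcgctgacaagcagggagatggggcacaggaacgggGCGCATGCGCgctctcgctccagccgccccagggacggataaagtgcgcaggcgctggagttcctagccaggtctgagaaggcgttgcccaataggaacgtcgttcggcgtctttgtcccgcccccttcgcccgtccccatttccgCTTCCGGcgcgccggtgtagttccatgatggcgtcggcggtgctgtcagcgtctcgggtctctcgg

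The regulators of these genes include NRF1, the GABP subunits, YY1 and their coactivators, which were counted as a list. Of 10 nuclear regulators of mitochondrial genes tested, of 11 listed, 9 had a log2FC below 0, with a median of -0.84, and 8 were lower without overlap and 0 higher, against 28.3% and 28.9% of all genes. At an unadjusted p under 0.05 in edgeR, 1 of the 10 was lower, near the 10.1% of all genes. This was Pprc1, a coactivator of NRF1, at 18.02 and 10.3 FPKM in DMSO and 6.93 and 6.17 in treated embryos (log2FC -1.29 ± 0.46, edgeR adjusted p = 0.333). Nrf1 was at 27.7 FPKM in DMSO replicate 1 and at 8.88, 9.41 and 8.63 in the other libraries (log2FC -1.36 ± 0.61, edgeR adjusted p = 0.343), so its difference rested on that library. Gabpb2, a partner of GABPA, had a log2FC of -1.01 ± 0.46 (edgeR adjusted p = 0.347). None had an adjusted p under 0.05 in edgeR.

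For the machinery that expresses the mitochondrial genome, 16 symbols were sought, with Peo1 sought also as Twnk, and 15 genes were listed. Of these, 9 had a log2FC below 0 and 6 above, with a median of -0.31. At an unadjusted p under 0.05 in edgeR, 3 (20.0%) were lower and 0 higher, against 10.1% and 4.72% of all genes. Tefm, the elongation factor of mitochondrial transcription, was at 207 and 87.7 FPKM in DMSO and 45.6 and 39.9 in treated embryos (log2FC -1.98 ± 0.53, edgeR adjusted p = 0.333, DESeq2 adjusted p = 0.0111). Tfb2m, which opens the mitochondrial promoters, had a log2FC of -0.88 ± 0.37, and Mterf1a, a terminator, of -1.37 ± 0.50.

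The assembly factors of the complexes, a list that also held the subunit gene Ndufab1, were more evenly split. Of 49 tested, 50 listed and 51 sought, 30 were below 0 and 19 above, with a median log2FC of -0.21. At an unadjusted p under 0.05 in edgeR, 5 (10.2%) were lower and 3 (6.12%) higher, near the 10.1% and 4.72% of all genes. Uqcc3, which assembles complex III, was at 431 and 252 FPKM in DMSO and 119 and 142 in treated embryos (log2FC -1.56 ± 0.44, edgeR adjusted p = 0.333, DESeq2 adjusted p = 0.0257). Ndufaf5, for complex I, and Sco1, which delivers copper to complex IV, had log2FC of -1.36 ± 0.43 and -2.24 ± 0.77. The 3 higher factors were Ndufaf2 and Ndufaf4, for complex I, and Sdhaf4, for complex II, with log2FC of 1.13, 1.06 and 1.05. No gene of the 3 lists had an adjusted p under 0.05 in edgeR.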

How the data were processed

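RNA of 4 libraries (2 DMSO, 2 10074-G5) was grouped by the sample labels. Per the labels' processing notes and the study's methods, the authors aligned read pairs from a SMART-Seq kit to mm10 with STAR (version 2.7.10), kept unique alignments and ran RSEM (version 1.3.3). They deposited for each gene an expected count (estimated fragments, not normalized), a TPM and an FPKM (both scaled to effective length and library size by the authors) and the effective length. From 3.97% to 4.49% of the deposited expected counts were not whole, and they were rounded. TPM served only to check the unit.

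Genes were kept by filterByExpr (minimum count 10, minimum total 15), scaled with TMM factors (0.873, 1.04, 1.04 and 1.06) and tested with edgeR 4.0.16 in R 4.3.3 (quasi-likelihood, robust, two-sided, Benjamini-Hochberg over all genes). The biological coefficient of variation was 0.557. CPM values use TMM, and no overlap was judged in CPM. DESeq2 1.42.0 and limma 3.58.1 (log2(FPKM + 1) or log2(FPKM + 0.1), mean FPKM of at least 1) were alternatives, with other scalings, other filters, the replicate number as a block and each library left out. The fits were tested on simulated data.

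The members, the lists of regulators, genome expression, assembly factors and markers, and the motifs were chosen with earlier results of these data known. Named were the catalytic subunits, the members with the smallest p and highest FPKM in each complex, isoform sets, members called by edgeR or DESeq2, members not tested, and in each list the 3 genes of smallest p. Other names were chosen after their values were seen. A result that the rule would name is not reported here. PCR copies were counted as separate molecules, so floors cover counting error only. Reads shared with near-identical copies such as pseudogenes can be lost when only unique alignments are kept, so the level of members with such copies is uncertain, as it is where a locus overlaps another gene.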

Additional observations from a re-analysis of the deposited data

How the results depend on the processing

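The direction of the median log2FC of the members and of each complex was below 0 under every alternative run. Members at an adjusted p under 0.05 numbered 0 in the main test, 1 with DESeq2, 2 without the filter (Atp5s and Ndufb7), and 0 to 30 when a library was left out. Lower members at an unadjusted p under 0.05, 8 in the main test, numbered 3 with library totals (7.5% of all genes) and 1 to 45 with a library left out (2.05% to 20.5% of all genes). Higher ones, 0 in the main test, numbered 1 with DESeq2, with its size factors, without the filter, with at least 10 counts in every library and with limma without the filter, 2 with limma at either pseudocount, and 0 to 3 with a library left out (1.12% to 21.5% of all genes). Higher members without overlap, 9 in the main test, ran from 12 to 24 with a library left out, where the share of all genes was 37.0% to 44.2%. With a library left out the medians ran from -0.73 to -0.24 for all members, -0.71 to -0.13 for complex I, -0.58 to -0.10 for II, -0.95 to -0.41 for III, -0.63 to -0.29 for IV and -0.98 to -0.35 for V, the ends coming from the 2 DMSO libraries. That of complex IV was -0.28 with limma without the filter. The log2FC of Atp5g2 was 0.065 with library totals, 0.048 with limma at the larger pseudocount (with and without the filter) and 0.049 at the smaller. With a library left out it ran from -0.25 to 0.11, that of Cox7a1 from -1.86 to 1.47, Cyc1 from -0.21 to 0.55, Cycs from -0.53 to 0.003, Sdhb from -0.94 to 0.26 and Cox7a2l from -0.10 to 1.03. The causes were not tested.

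The replicate numbers are shared between the groups, but no label says that they pair the libraries, and the deviations of same-numbered libraries correlated at -0.09. With the replicate number as a block, 3 members were lower and 1 higher at an unadjusted p under 0.05 in edgeR, against 6.66% and 6.61% of all genes, and none had an adjusted p under 0.05, of 44 genes in all. With 2 libraries a group, a DMSO group whose libraries differ limits every value here.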

Other observations

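The effective length of Ndufv3, an accessory subunit of complex I with a long and a short transcript form, was 310 bases in DMSO replicate 1, 624 in DMSO replicate 2, and 778 and 557 in the treated libraries, a ratio of 2.51 between the highest and the lowest. Its counts were 207, 346, 365 and 393 and its FPKM 34.9, 30.4, 22.7 and 35.6 in the same order, so the libraries ranked differently by counts and per length. Ndufa7 was the other member whose effective length differed by over 1.2 times between libraries (ratio 1.302), against a median ratio of 1.02 over the members.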
